A study of Caenorhabditis elegans with 3 samples.

Results

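The genes described here encode the integrin receptor that fastens *Caenorhabditis elegans* muscle to its basement membrane and the proteins that join this receptor to the contractile filaments. They were chosen by name, as 10 genes: *pat-2*, *pat-3*, *pat-4*, *pat-6*, *unc-97*, *unc-112*, *deb-1*, *unc-95*, *unc-98* and *atn-1*. A platform annotation symbol matched 8 of them, each to 1 feature, among 19292 genes tested (15112 with a gene symbol and 4180 unnamed features kept as rows of their own). *deb-1*, which encodes vinculin, and *unc-95*, which encodes a LIM domain protein of the dense body, were matched to no feature and were not analysed here.

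RNA of late L4 hermaphrodites, animals near the end of the last larval stage, was hybridised to 3 two-colour arrays, 1 for each of 3 RNA preps. Channel 2 carried the late L4 RNA (coded TP05 in the labels) and channel 1 an RNA described as a wild-type mixed reference, the same on all arrays. The labels give no strain, treatment or age for the late L4 animals, do not say what was mixed in the reference, and leave unsaid whether each prep was grown apart. Only the variation among preps, possibly technical, therefore enters the p-values. Positive values are read as higher in late L4; this reading is likely, from the wording of the descriptions and the channel contents, and is not stated with the values.

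In body wall muscle, dense bodies anchor the thin filaments and M lines anchor the thick filaments to the cell membrane. Both are built on an integrin of an α and a β subunit that binds the extracellular matrix outside and gathers a complex of kindlin, integrin-linked kinase, PINCH and parvin inside. Loss of the core components leaves embryos paralysed and arrested during elongation, the Pat phenotype from which several of the genes are named.

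All 8 genes had a mean log2 ratio above 0, from 0.23 for *unc-98* to 1.45 for *atn-1*, as did 47.7% of all genes. The α-actinin gene *atn-1* and the α integrin gene *pat-2* passed the test (limma, Benjamini-Hochberg adjusted p under 0.05 over all genes), at 2.73-fold and 1.95-fold higher in late L4. The other 6 did not pass, and limma called 0 of the 8 lower (0 also at an unadjusted p under 0.05). Across all genes, 12% were called higher, 10.8% lower and 22.9% in either direction, so the 2 calls, 25% of the 8 genes, exceeded the background of higher calls by little more than a single gene. The median of the 8 means was 0.59 log2 units, against -0.03 for all genes. Whole animals were measured, so a change in the share of muscle cells and a change in RNA per muscle cell cannot be told apart.

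The receptor itself is a heterodimer of PAT-2 and PAT-3. *pat-2* (F54F2.1, chromosome III in the RefSeq table) stood at 0.19 on prep 1, 1.00 on prep 2 and 1.70 on prep 3, as log2 ratios. All 3 were above 0, and prep 1 lay closest to the reference. The mean was 0.96 ± 0.76 (SD, n = 3), with a 95% interval from limma of 0.36 to 1.57 and an adjusted p of 0.0225. Leaving out prep 3 ended this call, with a mean of 0.60, or 1.51-fold (limma, adjusted p = 0.248).

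*pat-3* (ZK1058.2, chromosome III) encodes the β subunit, the partner of both worm α integrins. Its log2 ratios were 0.37, 0.03 and 0.55 on preps 1, 2 and 3, with a mean of 0.32 ± 0.27 (SD, n = 3). Prep 2 was at the reference level, and the gene did not pass (limma, adjusted p = 0.402). The interval of -0.20 to 0.83 leaves room for a 1.78-fold higher level and for a 0.872-fold one.

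Although *pat-2* passed and *pat-3* did not, a difference between the subunits was not shown. The log2 ratio of *pat-2* minus that of *pat-3* came to -0.18, 0.97 and 1.15 on preps 1, 2 and 3. The mean difference of 0.65 was smaller than its SD of 0.72. An exact sign-flip test over 3 arrays, two-sided, gave p = 0.50, and the smallest p it allows is 0.25, so none of the 28 pairs among the 8 genes could pass such a test. *ina-1*, which encodes the other α integrin and was picked out after its values were seen, had a mean of 0.40 ± 0.23 (limma, adjusted p = 0.279).

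**Figure D1:**
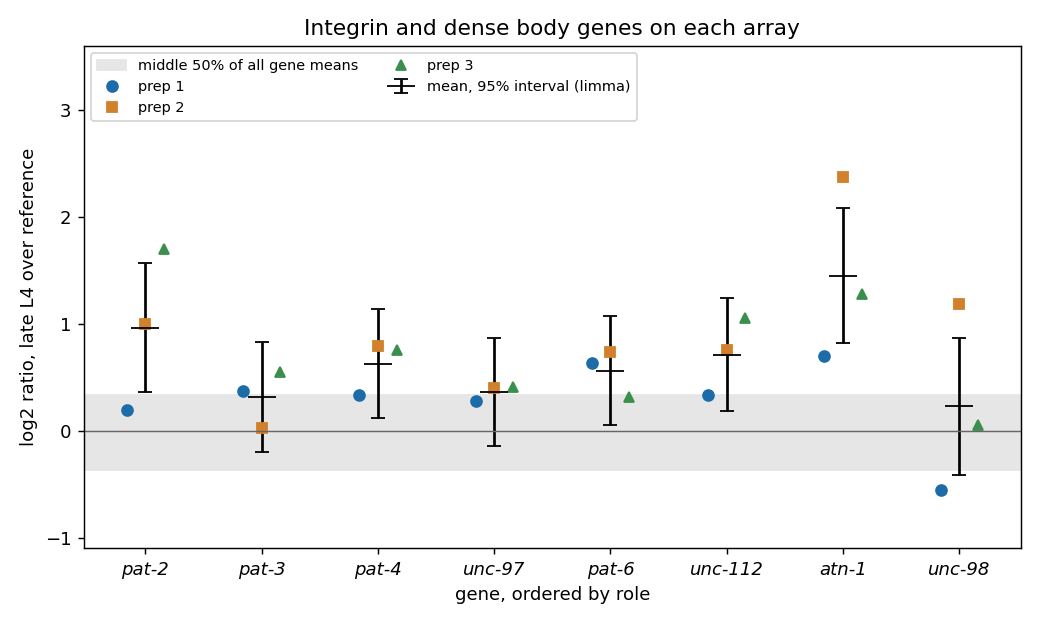
Log2 ratios of late L4 over reference (y axis) for the 8 measured genes (x axis, ordered by role) on each of 3 preps (coloured points), with the mean and its 95% interval from limma (black) and the middle 50% of all gene means (grey band). Only *unc-98* on prep 1 lies below 0, and the prep 1 point is the lowest of the 3 for 6 of the genes.

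The cytoplasmic complex bound to the integrin tail gave small ratios above 0, none of which passed. *unc-112* (C47E8.7, chromosome V) encodes kindlin, which binds the β integrin tail and recruits integrin-linked kinase. Its log2 ratios were 0.33, 0.76 and 1.05 on preps 1, 2 and 3, with prep 1 the lowest. The mean of 0.71 ± 0.36 (SD, n = 3) had an interval of 0.18 to 1.24 and missed the threshold narrowly (limma, adjusted p = 0.0503). The adjusted p from limma fell to 0.0481 under median centring of the arrays and 0.0459 with robust variance moderation. It was 0.0487 when named genes alone were tested and 0.0428 without prep 1. It rose to 0.0511 with features not averaged, 0.0515 under centring with scaling and 0.0531 with values on at least 2 arrays. Without prep 2 it was 0.164, without prep 3 0.274 and without moderation of the variance 0.272.

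*pat-4* (C29F9.7, chromosome III) encodes integrin-linked kinase, a scaffold that holds the complex together. Its log2 ratios were 0.33, 0.80 and 0.75 on preps 1, 2 and 3. Preps 2 and 3 lay close together and prep 1 below them. The mean was 0.63 ± 0.26 (SD, n = 3), or 1.55-fold, with an adjusted p of 0.0759 (limma).

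*pat-6* (T21D12.4, chromosome IV) encodes parvin, an actin-binding partner of the kinase. Its ratios on the log2 scale were 0.63, 0.74 and 0.31, with prep 3 the lowest, unlike *pat-4* and *unc-112*. The mean was 0.56 ± 0.22 (SD, n = 3; limma, adjusted p = 0.113).

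*unc-97* (F14D12.2, chromosome X) encodes PINCH, a protein made of LIM domains that binds integrin-linked kinase. It had the most even values of the 8, at 0.28, 0.40 and 0.41 log2 units on preps 1, 2 and 3. The SD of 0.073 log2 units ranked at percentile 2.6 among all genes. Because limma draws most of its spread from all genes, the interval around the mean of 0.36 still ran from -0.14 to 0.86, and the gene did not pass (adjusted p = 0.316).

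For *pat-4*, *pat-6* and *unc-112*, then, the 95% intervals lay above 0 but the p-values did not pass after adjustment over all genes. In all, 5 of the 8 genes had an unadjusted limma p under 0.05, all of them higher. Of all 19292 genes, 3186 were higher and 3192 lower at that threshold, or 33.1% in either direction. The intervals reached between 0.50 and 0.64 log2 units to either side of the mean, so a mean closer to 0 than this could not be told from 0 even before adjustment.

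On the actin side, *atn-1* (W04D2.1, chromosome V) encodes α-actinin, which crosslinks thin filaments within the dense body. It had the highest mean of the 8, with log2 ratios of 0.70 on prep 1, 2.38 on prep 2 and 1.28 on prep 3. On a linear scale these were 1.62-fold, 5.20-fold and 2.42-fold higher. Every prep was above 0, but prep 2 stood well over the others. The mean was 1.45 ± 0.85 (SD, n = 3), with an interval of 0.82 to 2.08 (limma, adjusted p = 0.00200). Without prep 2 it was 0.99, or 1.98-fold, and still passed (adjusted p = 0.024); *atn-1* was the only 1 of the 8 to pass whichever prep was left out.

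*unc-98* (F08C6.7, chromosome X) encodes a zinc finger protein that binds UNC-97 and links the attachment complex to myosin at the M line. Its log2 ratios were -0.56, 1.19 and 0.05 on preps 1, 2 and 3. The preps fell on both sides of the reference, and this was the sole gene of the 8 without 1 sign on all arrays, a property that 51.2% of all genes had. The mean was 0.23 ± 0.89 (SD, n = 3; limma, adjusted p = 0.662), and it turned to -0.25 without prep 2.

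The spread between preps divided the genes. The SDs of *unc-98* (0.89), *atn-1* (0.85) and *pat-2* (0.76) ranked at percentiles 94.9, 94.0 and 90.7 of all genes, while those of the other 5 lay between 0.073 and 0.36, below the median of all genes at 0.37. *atn-1* and *unc-98* were both lowest on prep 1 and highest on prep 2. Their log2 ratios differed by 1.26, 1.19 and 1.23 on preps 1, 2 and 3, the steadiest difference of the 28 pairs (SD 0.035), a pair singled out after its values were seen. *pat-2* instead was highest on prep 3.

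**Figure D2:**
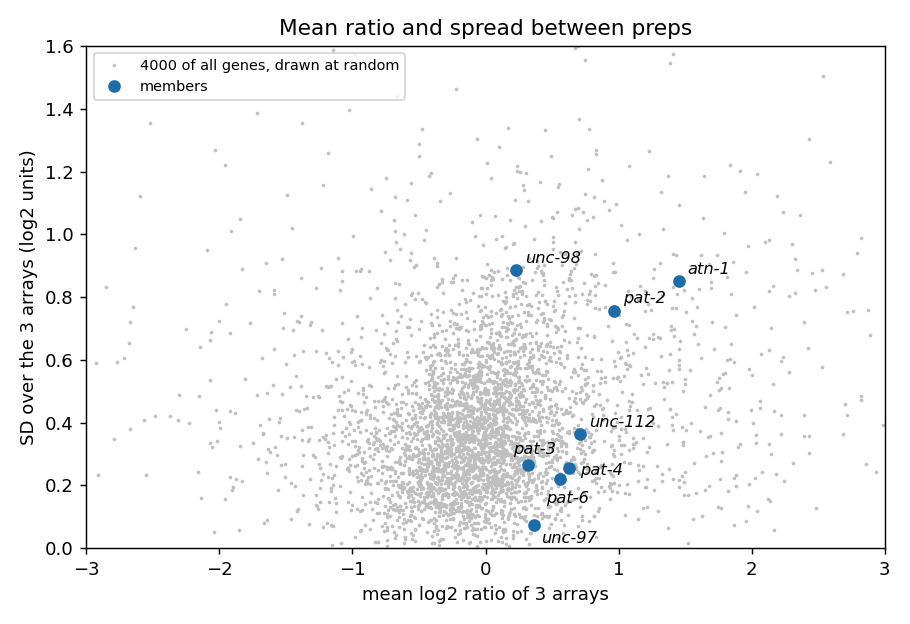
SD over the 3 arrays (y axis, log2 units) against the mean log2 ratio (x axis) for the 8 genes (blue) and 4000 of all genes drawn at random (grey; points beyond the axes are not shown). *unc-98*, *atn-1* and *pat-2* lie above the bulk of genes in spread, with SDs of 0.76 to 0.89, and *unc-97* near the bottom at 0.073.

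Prep 1 gave the lowest values for the set as a whole. The median log2 ratio of the 8 was 0.33 on prep 1 (range -0.56 to 0.70), 0.78 on prep 2 (0.03 to 2.38) and 0.65 on prep 3 (0.05 to 1.70). Of the 8, 2 lay above percentile 75 of all genes on prep 1, and 6 did so on each of preps 2 and 3. The medians over all features were 0.01, -0.10 and -0.06 on preps 1, 2 and 3, so the order of the set did not follow that of the arrays. A lowest median on prep 1 was also found in related lists given below. Medians on preps 1, 2 and 3 were 0.66, 1.28 and 1.27 for filament genes and 0.54, 0.89 and 0.99 for epidermal genes. Other adhesion genes had 0.23, 0.31 and 0.42. The matrix list (1.57, 1.15 and 1.26) was highest on prep 1, and the M line list (0.41, 0.52 and 0.39) was lowest on prep 3. Each array has a date of its own in its title, which cannot be told apart from the prep.

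**Figure D3:**
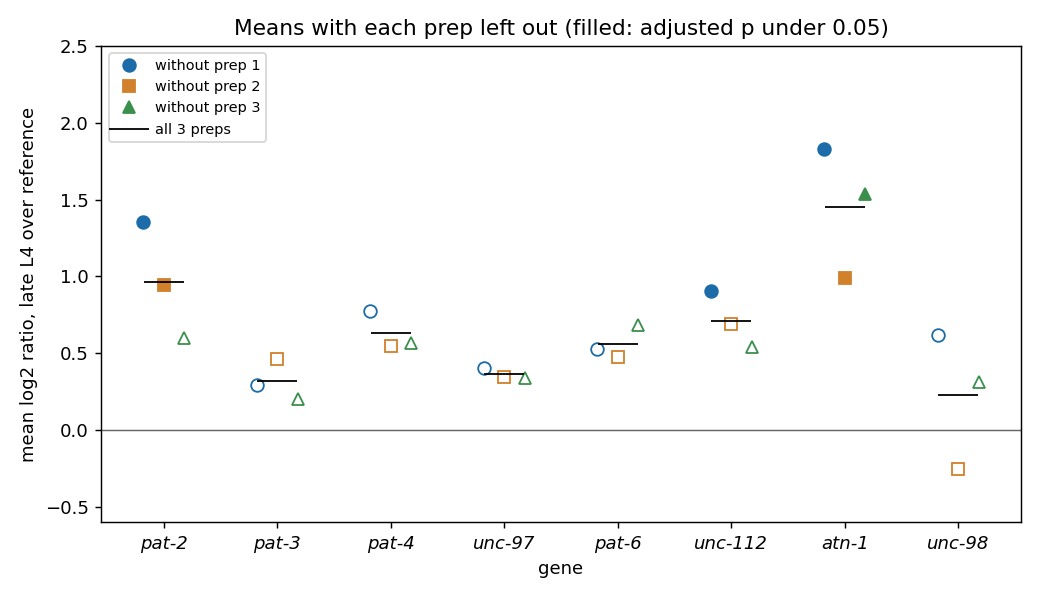
Mean log2 ratio of late L4 over reference (y axis) for each of the 8 genes (x axis) over all 3 preps (black bars) and with each prep left out (coloured points, filled where limma's adjusted p was under 0.05). *atn-1* passes in each case, *pat-2* does not pass without prep 3, and *unc-98* changes sign without prep 2.

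The integrin binds the matrix outside the cell. The lists of related genes given from here on were chosen with earlier results of these data known. Of 15 genes of the basement membrane and its receptors, 11 were higher (73.3%, against 12% of all genes), 0 were lower (11 and 0 at an unadjusted limma p under 0.05) and the median was 1.32 log2 units. The type IV collagen gene *emb-9* had log2 ratios of 2.72, 2.81 and 2.53 and was 6.43-fold higher (limma, adjusted p = 1.08e-06). *epi-1*, a laminin α gene, was 4.64-fold higher, and *unc-52*, the perlecan gene whose product lies beneath the dense bodies, had values of 2.17, 2.31 and 1.63 on preps 1, 2 and 3. Every prep of these 3 matrix genes was at 1.63 or above, a level that only *atn-1* on prep 2 and *pat-2* on prep 3 exceeded among the 8 genes.

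Other proteins of integrin adhesions were mixed. The list held 17 such genes with a median of 0.33, of which limma called 4 higher (23.5%) and 0 lower (5 and 4 at an unadjusted p under 0.05). *dim-1*, which encodes an immunoglobulin repeat protein around the dense body, was 3.66-fold higher, with log2 ratios of 1.97, 1.27 and 2.37. *ketn-1*, the kettin gene, was 2.09-fold higher as the average of 4 features, of which 3 passed singly (means 1.85, 1.04 and 1.42) and 1 did not (-0.04). The zyxin gene *zyx-1* was 2.07-fold higher. The other was *fhod-1*, a formin gene named after its value was seen, at 0.90 ± 0.17, and it did not pass when prep 2 was left out (adjusted p = 0.0869).

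Talin, encoded by *tln-1*, couples the integrin tail to actin together with vinculin. It was picked out after its values were seen because of that role. Its mean over 2 features was 0.42 ± 0.22 (limma, adjusted p = 0.251), and the features gave 0.20 and 0.63.

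At the M line and in the giant muscle proteins, 2 of 6 genes were higher (33.3%) and 0 lower in limma (4 and 1 at an unadjusted p under 0.05), with a median of 0.64. *ttn-1*, a titin-like gene, was 1.95-fold higher over 3 features that each passed, and *unc-82*, which encodes a kinase of the M line, 1.68-fold (limma, adjusted p = 0.00999 and 0.0471). Both calls were lost without prep 2 (adjusted p = 0.088 and 0.151) and without prep 3 (0.0632 and 0.289), and that of *unc-82* also under centring with scaling (0.0538) and with values on at least 2 arrays (0.0503). *scpl-1*, a phosphatase gene of this list, had values of -0.77, -0.59 and -0.62 on the log2 scale and did not pass (adjusted p = 0.0581).

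The filaments held by these attachments had a median of 0.87. Of 19 measured genes of the thin and thick filaments and their regulators, 11 were higher (57.9%) and 0 lower, and all 19 means were above 0; at an unadjusted p under 0.05, limma had 14 higher and 0 lower. A further 4 listed genes, *mlc-1*, *mlc-2*, *lev-11* and *tmd-1*, were matched to no feature under those symbols. The troponin T genes *tnt-2* and *mup-2* were 4.11-fold and 3.75-fold higher. *myo-3*, a myosin heavy chain of body wall muscle, had log2 ratios of 1.73, 2.07 and 2.10, a 3.92-fold mean. The actin genes *act-1* to *act-4*, near-identical copies that are uncertain as single genes, were all 4 among the 11 higher, so 1 signal may be counted under several of them. Without them, a count added after seeing the data, 7 of 15 genes (46.7%) were higher.

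On the epidermal side, muscle force passes to the cuticle through fibrous organelles. Of 9 genes of these structures, 5 were higher (55.6%) and 0 lower in limma (7 and 0 at an unadjusted p under 0.05), with a median of 0.79. *mup-4*, a transmembrane matrix receptor gene, was 4.49-fold higher and *ifb-1*, an intermediate filament gene, 2.84-fold. *let-805*, the myotactin gene, was 1.88-fold higher (limma, adjusted p = 0.0122, and 0.104 without prep 3). The remaining 2, named after their values were seen, were *mua-6* and *mua-3*, whose calls were both lost without prep 2 (adjusted p = 0.242 and 0.108) and without prep 3 (0.149 and 0.154). The features of *mua-3* disagreed, at 1.54 and 0.04.

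**Figure D4:**
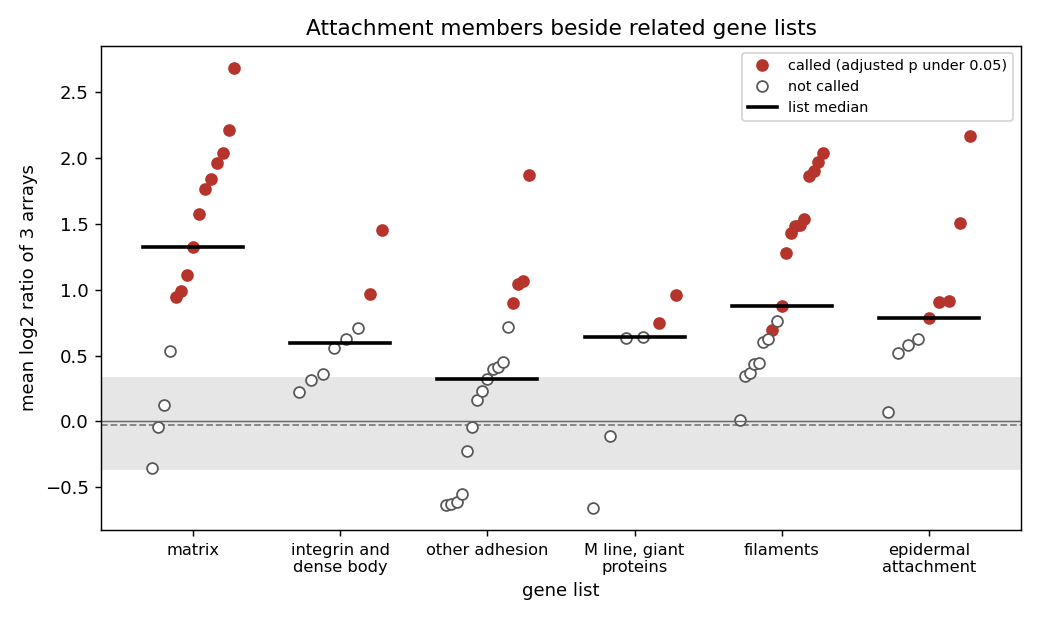
Mean log2 ratio over 3 arrays (y axis) of each measured gene in the integrin and dense body set and in 5 related lists (x axis), with called genes filled, list medians as bars, the middle 50% of all gene means in grey and their median dashed. The integrin and dense body set has a median of 0.59, between the other adhesion genes at 0.33 and the M line list at 0.64, and the matrix list the highest at 1.32. The set and lists were chosen with earlier results of these data known.

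Among the 66 genes of these lists, the closest to the median profile of the 8 genes were *vab-19*, *mlc-3* and *vab-10*, with Euclidean distances of 0.27, 0.29 and 0.32 log2 units over the 3 arrays. None of the 3 passed the test, and the 3 features of *vab-10* disagreed (0.80, 0.04 and 1.05). With 3 arrays of 1 condition, this likeness describes little more than a similar mean.

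Markers of cells that could hold these transcripts were also measured, with calls to be read against 12% higher and 10.8% lower of all genes. Of 6 body wall muscle markers, 3 of them transcription factor genes, 2 were higher, *myo-3* and the paramyosin gene *unc-15* (1.87 ± 0.07), and 0 lower; the list's median was 0.11. The muscle transcription factor gene *hlh-1*, picked out after its values were seen, had log2 ratios of -0.18, -0.29 and -0.18 (limma, adjusted p = 0.578), and *unc-54*, the major myosin heavy chain gene, had 0.12, -0.41 and 1.33 (adjusted p = 0.475). Of 5 pharyngeal muscle markers, 1 was higher (*tnt-4*, 1.06 ± 0.16) and 1 lower (*tnc-2*, -1.70 ± 0.65). Their median was 0.48, and *myo-1*, at 0.79 ± 0.77, did not pass (limma, adjusted p = 0.0598). Of 3 markers of the gonadal sheath and spermatheca, where integrins also act, 1 was higher (*fln-1*, the filamin gene, 1.36 ± 0.53). *lim-7* and *ceh-18* had means of -0.04 and -0.05 and did not pass (limma, adjusted p = 0.944 and 0.922), and the median of these markers was -0.04. The filament list, which holds other genes of body wall muscle too, had 11 of 19 higher and 0 lower, as given above. It shares *myo-3*, *unc-15* and *unc-54* with the body wall markers, so these counts overlap. The near-identical genes *act-1* to *act-4* are also among its 11. The part of the muscle, pharyngeal and gonadal markers in the values of the integrin and dense body genes was not tested.

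The genes beside the 8 on their chromosomes were measured too. Of 16 adjacent protein-coding genes in the RefSeq order, 1 was higher and 1 lower, against 12% and 10.8% of all genes. The median log2 ratio of the 16 was 0.01, with a range of -0.92 to 1.39. The higher one, named after its value was seen, was *apy-1*, next to *unc-98*.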

How the data were processed

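The authors deposited 1 log2 ratio per feature and array, without stating normalization; 2 to the power of each value fell on steps of 0.001 for 100% of the values (tolerance 0.05 of a step). For dyes, background correction, probe type and genome build, the sources used here give nothing; 0 arrays are known to be dye-swapped, so a gene's own dye effect cannot be told apart from a difference between RNAs. Signal over background was not analysed here, and the number of arrays limits the precision. The 3 arrays had Pearson correlations across genes of 0.69 to 0.73.

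Of 20000 features, 15655 had 1 gene symbol, 198 several and 4147 none listed. A RefSeq table for assembly WBcel235 was used for names, chromosomes and gene order only. It held the Entrez ID of 15569 of the features with 1 symbol, and its symbol, changed or not, was used for these. Features with values on all 3 arrays were averaged for each gene, and the mean log2 ratio was tested against 0 with lmFit and eBayes (limma 3.58.1, R 4.3.3; 2 residual and 12.8 prior degrees of freedom, prior SD 0.438). The reference has no replicate, so its own spread is left out. The procedure was tested on simulated data.

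The members and lists were chosen with earlier results of these data known. Named genes were all members, from each list the 3 called genes farthest from 0 (where fewer were called, those of lowest p), and the 3 nearest to the members' median profile; others are marked as chosen after their values were seen. The alternatives were median centring, centring with scaling, values on at least 2 arrays, robust or no moderation, features not averaged, named genes only, stricter thresholds and leaving out each prep.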

Additional observations from a re-analysis of the deposited data

How the results depend on the processing

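Each log2 ratio compared the channels of 1 array. No further pairing of arrays was possible because all 3 belong to the same group. Of the integrin and dense body genes, 2 were higher; the count was 1 at an adjusted p under 0.01 and 1 at 2-fold or more, both of them stricter thresholds, and 1 to 3 with a prep left out. Without moderation of the variance, which leaves 2 degrees of freedom, limma called 0 of them, 0 in every other list and 0 of all genes, higher or lower; at an unadjusted p under 0.05 it then had 2 of them higher and 0 lower, and 1874 and 2340 of all genes. The mean of *unc-98* ranged from -0.25 to 0.62 with a prep left out. Lower genes overall numbered 1217 at the stricter p, 1168 at 2-fold and 1340 to 1768 with a prep left out, and higher genes 1793 to 2047. With a prep left out, 9 to 11 matrix, 3 to 5 other adhesion, 0 to 2 M line, 9 to 11 filament and 2 to 5 epidermal genes were higher. M line genes numbered 1 under centring with scaling, 1 with values on at least 2 arrays, 1 at the stricter p and 0 at 2-fold. Epidermal genes numbered 2 at either stricter threshold. Not averaged, 4 M line and 8 epidermal features were higher, a count of features in place of genes. Without *act-1* to *act-4*, a count chosen after seeing the data, 7 filament genes were higher. Beyond these constructions the cause was not tested.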
